A study of Homo sapiens with 16 samples.

Results

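PML, DAXX, SP100, SP110, SP140 and SP140L encode proteins of PML nuclear bodies or of the SP100 family, and their mRNAs were followed in multiple myeloma cells treated with an inhibitor of SUMOylation, with a glucocorticoid or with both. The genes were chosen by symbol from the table of read counts, so they are 6 of its 23354 genes, and all 6 were among the 14215 genes with enough reads to be tested. The cells were MM1S, a human myeloma line that responds to dexamethasone (Dex), and MM1R, the Dex-resistant line for which MM1S is the parental counterpart. Cells of each line were kept for 48 h with vehicle, with TAK-981 at 0.1 μM, with Dex at 1 μM, or with both agents at these doses (combo). TAK-981 inhibits the E1 enzyme that activates SUMO, the small protein that is attached to other proteins in SUMOylation. Total RNA depleted of ribosomal RNA was sequenced from 2 libraries of each of the 8 groups. The labels do not say whether the libraries of a group came from separate cultures, so p-values measure only the spread between these libraries, which may be technical. Each line is a single line, and a difference between MM1S and MM1R is a difference between these lines and not a measure of Dex resistance as such.

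PML nuclear bodies are spherical assemblies in the nucleus that PML protein builds. SUMO attached to PML, and the SUMO-binding motifs of PML and its partners, hold the bodies together, so SUMO is a part of their structure. SP100 is a permanent resident of the bodies. SP110, SP140 and SP140L are its relatives and carry domains that read chromatin, and SP110 and SP140 are known mainly from immune cells. DAXX is recruited to the bodies by binding SUMO, and with ATRX it deposits the histone variant H3.3. PML and SP100 are also known as interferon-inducible genes. The measurements here are of mRNA and say nothing of the number of bodies or of the SUMOylation of the proteins.

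In the count table, which gives hg19 positions, SP110 lies on chromosome 2 from 231033645 to 231090444 on the minus strand, and SP140 follows on the plus strand from 231090445 to 231223847. SP140L lies from 231191894 to 231268445 and SP100 from 231280871 to 231410317, both on the plus strand of the same chromosome. PML lies on chromosome 15 from 74287014 to 74340155 on the plus strand, and DAXX on chromosome 6 from 33286335 to 33290793 on the minus strand. SP110, SP140, SP140L and SP100 therefore form a row of neighbours, and the spans of SP140 and SP140L overlap in this table.

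The promoters of these neighbours are shown because all 4 genes were lower in MM1R than in MM1S before treatment and rose with TAK-981 in MM1R. RefSeq (GRCh38.p14) gave 6 promoter windows of 300 bases for the 4 genes, each from 250 bases before the start of the gene to 50 bases after it, with a second start for SP110 and for SP100. The first windows of SP110 and SP140 overlapped by 199 bases, at chr2:230225587-230225785, because these genes start 100 bases apart on opposite strands. The first windows of SP100 and SP140L were identical at 251 of 328 aligned positions (76.5%), whereas the other pairs were identical at 42.9% to 49.4%. Each of the 4 first windows held the stretch TTTCACTTNTCTTTTCC (N is any base) on 1 of its strands, and it is in capitals in the windows of SP100 (chr2:230415951-230416250, plus strand), SP140L (chr2:230326943-230327242, plus strand) and SP110 (chr2:230225587-230225886, minus strand, where the capitals read as its reverse complement):
SP100: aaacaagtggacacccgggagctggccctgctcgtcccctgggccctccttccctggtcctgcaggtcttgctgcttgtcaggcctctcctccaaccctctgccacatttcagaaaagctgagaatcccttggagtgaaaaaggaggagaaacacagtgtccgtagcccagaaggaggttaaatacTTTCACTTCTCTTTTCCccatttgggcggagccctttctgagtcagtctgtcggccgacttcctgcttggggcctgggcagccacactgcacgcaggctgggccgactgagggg
SP140L: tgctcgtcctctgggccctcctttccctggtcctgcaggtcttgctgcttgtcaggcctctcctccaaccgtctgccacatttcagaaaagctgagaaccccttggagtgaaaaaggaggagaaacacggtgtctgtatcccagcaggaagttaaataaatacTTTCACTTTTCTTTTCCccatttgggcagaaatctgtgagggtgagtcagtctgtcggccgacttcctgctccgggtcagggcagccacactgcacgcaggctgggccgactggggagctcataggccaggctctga
SP110: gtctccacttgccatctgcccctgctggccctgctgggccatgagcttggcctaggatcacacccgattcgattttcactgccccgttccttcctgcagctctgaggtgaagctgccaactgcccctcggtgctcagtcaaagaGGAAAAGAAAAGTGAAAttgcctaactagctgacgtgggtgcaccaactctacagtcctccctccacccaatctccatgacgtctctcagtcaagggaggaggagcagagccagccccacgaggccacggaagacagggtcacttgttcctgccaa
The stretch joins 2 runs of 8 bases shared by the first windows, TTTCACTT and TCTTTTCC, and was chosen after these sequences were seen. Among all 35116 windows in the RefSeq table it occurred in 4 (0.0114%), those of these 4 genes, and since SP110 and SP140 share their copy it stands at 3 places in the genome. It began 10 bases before the start of SP140, 87 before that of SP140L, 64 before that of SP100 and 106 before that of SP110. TTTCACTT alone, on either strand, was in 5 of the 6 windows of these genes and in 1.62% of all windows, and TCTTTTCC in 4 of the 6 and 2.27%. Another shared run, AGGAGGAG, was in 5 of the 6 and in 6.79% of all windows. GAAANNGAA, the core of the interferon-stimulated response element, was in 8.11% of all windows on either strand and in 0 of the 6 windows of these genes. Only exact matches were searched for, and at that share of all windows 0 of 6 does not show that such an element is absent. A match is a match of letters only, and no binding was measured.

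Library totals in MM1S were 15707587 to 20644510 counts and those in MM1R 18987739 to 24796539. The 6 genes had between 324 counts (SP110) and 2795 counts (SP100) in a library. Levels are given as CPM, the count per 1000000 counts after scaling by edgeR's TMM method, and a call means a Benjamini-Hochberg adjusted p under 0.05 in edgeR's quasi-likelihood test over the 14215 genes. All 8 plasma cell markers were detected, with PRDM1, a master regulator of plasma cells, at 680 to 816 CPM. No B cell marker was above 0.542 CPM and no monocyte marker above 0.454 CPM in any library, and of the T cell markers CD3D was at 0 and CD3E at 0.372 to 5.32 CPM. The glucocorticoid receptor gene NR3C1 was at a mean of 279.7 CPM in vehicle-treated MM1S and 18.9 CPM in MM1R. FKBP5, a standard glucocorticoid target, was at 68.8 CPM with vehicle and 1663 CPM with Dex in MM1S. Its means in MM1R were 94.7 and 95.7 CPM.

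Compared per kilobase of the gene length that the table gives, DAXX was the most abundant of the 6 mRNAs in each of the 8 groups, at 29.03 to 37.8 CPM per kb. SP140L was the least abundant in each group, at 3.62 to 6.05 CPM per kb. In vehicle-treated MM1S the order between them was SP140 at 10.1 ± 0.0671 CPM per kb (SD, n = 2), SP100 at 9.48 ± 0.0343, SP110 at 7.03 ± 0.321 and PML at 5.93 ± 0.303. In vehicle-treated MM1R it was SP140 at 6.26 ± 0.252, SP100 at 5.77 ± 0.179, PML at 5.40 ± 0.311 and SP110 at 4.41 ± 0.0656. SP100 and PML did not differ there beyond the sum of their SDs. After TAK-981, SP100 was second to DAXX in both lines, at 17.4 ± 2.06 CPM per kb in MM1S and 15.2 ± 0.967 in MM1R. In MM1S SP110 followed at 10.5 ± 0.0258, above SP140 at 10.1 ± 0.295 by more than the sum of their SDs. In MM1R SP140 at 9.25 ± 0.337 and SP110 at 9.11 ± 0.318 lay within their spread. Per-length levels rest on 1 length per gene and do not allow for the several isoforms of PML and SP100.

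**Figure D1:**
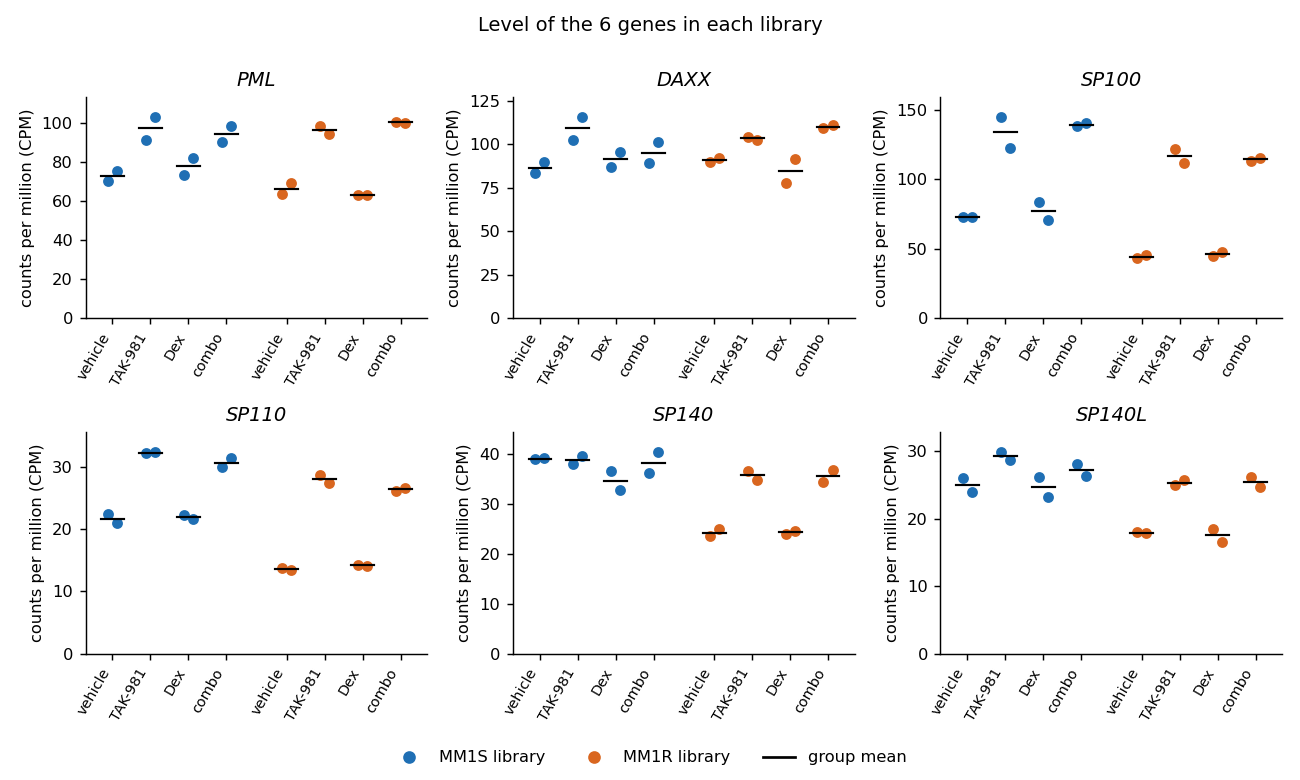
Level of each gene in CPM (linear axis from 0) in each of the 16 libraries (points) with the mean of each group (line), MM1S in blue and MM1R in orange. SP100, SP110, SP140 and SP140L sit lower in MM1R than in MM1S under vehicle and Dex, and SP100 and SP110 stand higher under TAK-981 and combo than under vehicle in both lines.

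TAK-981 treatment was compared with vehicle in each line to see whether blocking SUMOylation moved the mRNAs of the bodies that SUMO helps to build. It raised PML, SP100, SP110, SP140L and DAXX in MM1S, and PML, SP100, SP110, SP140 and SP140L in MM1R, by 1.17-fold to 2.64-fold. Thus 5 of 6 were called higher in each line, where 25.2% of all tested genes were called higher in MM1S and 25.8% in MM1R. The lowest value of the 12 was that of SP140 in MM1S, at −0.0094 on the log2 scale. SP100 changed most and SP110 next in both lines.

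SP100 was at 73.1 and 72.7 CPM in the MM1S vehicle libraries and at 145 and 122.6 CPM with TAK-981. In MM1R it was at 43.3 and 45.3 CPM with vehicle and at 122.1 and 111.6 CPM with TAK-981. Both treated libraries were thus above both vehicle libraries in each line, and the treated MM1S libraries were the furthest apart. The log2 fold change was 0.88 (standard error 0.0825, edgeR adjusted p = 6.44e-08) in MM1S and 1.398 (standard error 0.0847, edgeR adjusted p = 2.76e-10) in MM1R, which is 1.84-fold and 2.64-fold.

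SP110 was at 22.4 and 21.0 CPM with vehicle and 32.3 and 32.4 CPM with TAK-981 in MM1S. In MM1R the vehicle libraries were at 13.7 and 13.4 CPM and those with TAK-981 at 28.8 and 27.4 CPM. The treated libraries did not overlap with vehicle in either line, as for 70.3% of all tested genes in MM1S and 81.2% in MM1R. The log2 fold change was 0.58 (standard error 0.0755, edgeR adjusted p = 4.51e-06) in MM1S and 1.05 (standard error 0.0788, edgeR adjusted p = 4.25e-09) in MM1R.

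SP140, a chromatin reader of lymphoid cells, behaved differently in the lines. In MM1S it was at 39.0 and 39.3 CPM with vehicle and at 38.1 and 39.7 CPM with TAK-981, so that the groups overlapped. The log2 fold change of −0.0094 had a 95% interval of −0.17 to 0.16 (edgeR adjusted p = 0.934). In MM1R it was at 23.5 and 24.9 CPM with vehicle and at 36.7 and 34.9 CPM with TAK-981, a log2 fold change of 0.56 (standard error 0.0809, edgeR adjusted p = 1.27e-05). The treated MM1R libraries did not overlap with their vehicle, and lay below the MM1S vehicle libraries.

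SP140L, the SP140-like gene beside it, was at 26.0 and 24.0 CPM with vehicle and 29.9 and 28.7 CPM with TAK-981 in MM1S. The log2 fold change there was 0.23 (standard error 0.0851, edgeR adjusted p = 0.0343), the weakest of the calls, and it was lost with library size as the only scaling, without the filter on low counts, in DESeq2, and in a fit of only these groups (adjusted p from 0.0737 to 0.166). It was also lost without replicate 2 of MM1S vehicle (log2 fold change 0.171, adjusted p = 0.219) and without replicate 1 of MM1S TAK-981 (0.196, adjusted p = 0.119, both edgeR). In MM1R it went from 18.0 and 17.9 CPM to 25.0 and 25.7 CPM, a log2 fold change of 0.50 (standard error 0.0875, edgeR adjusted p = 0.00011).

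SP140 and SP140L share sequence. Of the stretches of 50 bases in their GENCODE release 29 transcripts, 638 were found in both genes, which is 10.8% of those of either gene, and no other pair of the 6 genes shared any. How reads in such stretches, or in the overlap of the spans of these genes, were counted is not given in the sources used here, so the split between them is uncertain. With their counts summed, the log2 fold change for TAK-981 was 0.0877 (edgeR adjusted p = 0.275) in MM1S and 0.54 (edgeR adjusted p = 1.94e-06) in MM1R.

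PML, the scaffold of the bodies, was at 70.1 and 75.4 CPM with vehicle and 91.1 and 103 CPM with TAK-981 in MM1S. In MM1R it was at 63.5 and 68.9 CPM with vehicle and at 98.5 and 94.2 CPM with TAK-981. No treated library overlapped with its vehicle libraries. The log2 fold change was 0.42 (standard error 0.0751, edgeR adjusted p = 0.000151) in MM1S and 0.54 (standard error 0.0748, edgeR adjusted p = 8.49e-06) in MM1R.

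DAXX, the H3.3 chaperone, was at 83.5 and 89.6 CPM with vehicle and 102.4 and 115.9 CPM with TAK-981 in MM1S, a log2 fold change of 0.33 (standard error 0.082, edgeR adjusted p = 0.00241). In MM1R it was at 90.1 and 92.2 CPM with vehicle and at 104.4 and 102.5 CPM with TAK-981. The MM1R groups did not overlap, but the log2 fold change of 0.18 (95% interval 0.011 to 0.35) did not pass the test (edgeR adjusted p = 0.0681). It did pass in a fit of the MM1R groups concerned alone (adjusted p = 3.82e-05).

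Dex was compared with vehicle to see how a glucocorticoid alone moved the same genes. None of the 6 was called in either line by edgeR. In MM1S, where 42.3% of all tested genes were called in either direction, the log2 fold changes of the 6 genes ran from −0.17 to 0.097 and 1 had an unadjusted p under 0.05. That gene was SP140, at 36.5 and 32.9 CPM with Dex against 39.0 and 39.3 CPM with vehicle (log2 fold change −0.17, edgeR adjusted p = 0.0866). Both Dex libraries of SP140 were below both vehicle libraries, whereas the groups overlapped for the other genes of the 6. Groups did not overlap, in either direction, for 68.8% of all tested genes in this comparison. With single libraries left out, the log2 fold change of SP140 ran from −0.25 to −0.11. At −0.25, without replicate 1 of MM1S Dex, SP140 passed the threshold, in a fit with 1 MM1S Dex library. In MM1R, 0% of all tested genes were called with Dex (395 genes had an unadjusted p under 0.05), and the 6 log2 fold changes ran from −0.11 (DAXX) to 0.066 (SP110), with 0 of 6 at an unadjusted p under 0.05. DESeq2 also called 0 of 6 with Dex in each line.

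**Figure D2:**
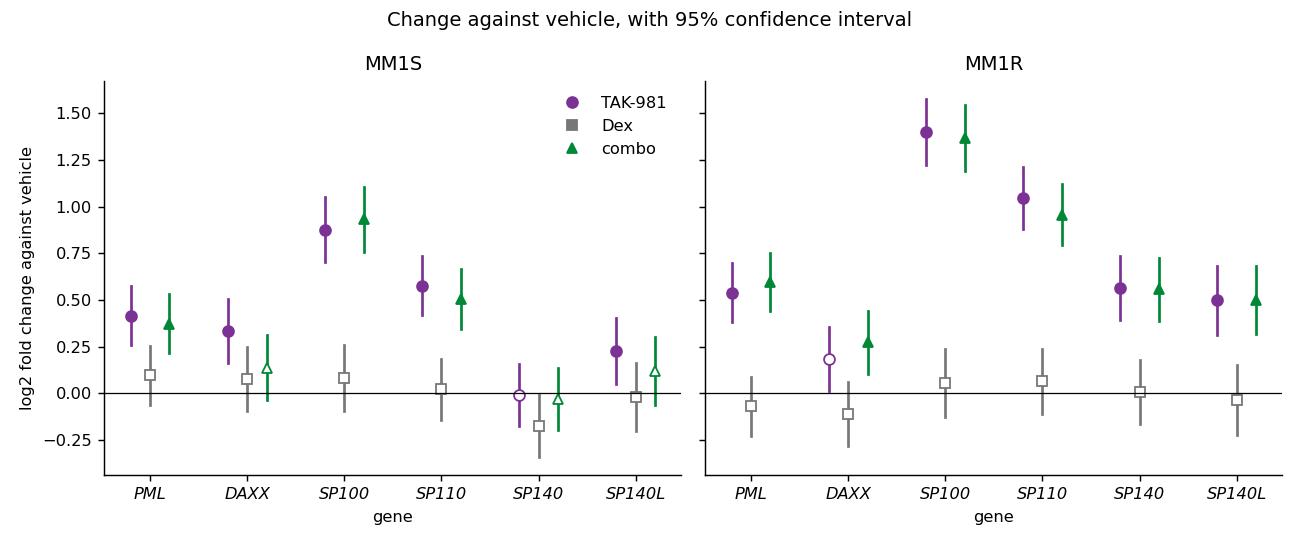
Log2 fold change of each gene against vehicle with TAK-981 (circles), Dex (squares) and combo (triangles), with 95% confidence intervals, in MM1S (left) and MM1R (right), where filled symbols passed the test at an adjusted p under 0.05. TAK-981 and combo lie side by side above 0 for SP100 and SP110 in both lines, while the Dex values lie between −0.17 and 0.097.

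The combo was compared with vehicle and with each agent alone. In MM1S it raised PML, SP100 and SP110 (3 of 6, where 30.8% of all tested genes were called higher), and in MM1R all 6 (24.8%). SP100 stood at 138.1 and 140.3 CPM with combo in MM1S. In MM1R it reached 113.4 and 115.4 CPM. These are log2 fold changes of 0.93 (edgeR adjusted p = 1.5e-08) and 1.37 (edgeR adjusted p = 3.56e-10) against vehicle. SP110 reached 29.9 and 31.5 CPM in MM1S, and 26.1 and 26.7 CPM in MM1R.

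PML was at 90.1 and 98.1 CPM with combo in MM1S, and in MM1R it was at 100.5 and 99.9 CPM. SP140 stood at 36.2 and 40.4 CPM in MM1S, around its vehicle level. In MM1R it stood at 34.5 and 36.8 CPM, above its vehicle level. SP140L was at 28.1 and 26.3 CPM in MM1S (log2 fold change 0.12, edgeR adjusted p = 0.24) and at 26.2 and 24.7 CPM in MM1R (0.50, edgeR adjusted p = 9.64e-05). DAXX was at 89.3 and 101.1 CPM in MM1S, where its range met that of vehicle, and at 109.2 and 111.2 CPM in MM1R, the only treatment of MM1R in which it was called (log2 fold change 0.27, edgeR adjusted p = 0.00894). This call was lost without replicate 1 of MM1R vehicle (0.255, edgeR adjusted p = 0.0621) and without replicate 2 of MM1R combo (0.26, edgeR adjusted p = 0.0562).

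Against Dex alone, the combo raised the same PML, SP100 and SP110 in MM1S (3 of 6, with 22.2% of all tested genes called higher) and all 6 in MM1R (23.1%). The MM1S call of PML (log2 fold change 0.28, edgeR adjusted p = 0.00571) was lost without replicate 1 of MM1S Dex (0.194, adjusted p = 0.0742) and without replicate 2 of MM1S combo (0.212, adjusted p = 0.0792). Against TAK-981 alone, edgeR called none of the 6 in MM1S, where 35.1% of all tested genes were called in either direction, and none in MM1R, where 0% were (214 genes had an unadjusted p under 0.05). The largest of these differences in MM1S was that of DAXX, with a log2 difference of −0.20 (95% interval −0.37 to −0.023, edgeR adjusted p = 0.0733), the 1 gene of the 6 with an unadjusted p under 0.05. The interval of SP100, which was −0.11 to 0.23 in MM1S and −0.20 to 0.14 in MM1R, limits how far Dex moved it on top of TAK-981. A combo beyond the sum of both agents was called for none of the 6 in MM1S (14.9% of all tested genes in either direction) or in MM1R (0%, with 400 genes at an unadjusted p under 0.05). DAXX had the 1 unadjusted p under 0.05 there too, with a value of −0.27 in MM1S (edgeR adjusted p = 0.123), and DESeq2 called 0 of 6 in each of these 4 comparisons. Without the filter on low counts, edgeR called DAXX against TAK-981 in MM1S (adjusted p = 0.0391). With a term for replicate number, edgeR called DAXX there (adjusted p = 0.00676) and beyond the sum in MM1S (adjusted p = 0.0143). With single libraries left out, these 2 values of DAXX ran from −0.29 to −0.10 and from −0.36 to −0.18, and some passed. The comparisons share their vehicle, TAK-981 and combo libraries, so they are not independent of each other.

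The lines were compared under vehicle to see whether the Dex-resistant line differed before treatment. SP100, SP110, SP140 and SP140L, the row of neighbours on chromosome 2, were lower in MM1R, and PML and DAXX were not called. These 4 of 6 compare with 22.6% of all tested genes called lower. For SP140, the MM1R vehicle libraries at 23.5 and 24.9 CPM stood against 39.0 and 39.3 CPM in MM1S, a log2 difference of −0.69 (standard error 0.0801, edgeR adjusted p = 1.56e-06). For SP100 the log2 difference was −0.72 (standard error 0.0855, edgeR adjusted p = 2.19e-06), for SP110 −0.67 (edgeR adjusted p = 2.16e-06) and for SP140L −0.48 (edgeR adjusted p = 0.000205). The libraries of the lines did not overlap for any of the 6 genes, PML and DAXX included, as for 79.2% of all tested genes. The fitted MM1R level was 0.608 times that of MM1S for SP100 and 0.718 times for SP140L. PML differed by −0.13 (95% interval −0.29 to 0.024, edgeR adjusted p = 0.152) and DAXX by 0.075 (95% interval −0.096 to 0.25, edgeR adjusted p = 0.472). PML passed the test with library size as the only scaling (−0.20, adjusted p = 0.0267) and in a fit of only these groups (−0.15, adjusted p = 0.0062).

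Whether TAK-981 acted with different size in the lines was tested as an interaction. SP100, SP110 and SP140 rose more in MM1R than in MM1S (3 of 6), where 3.19% of all tested genes were called in this direction. The difference in response was 0.52 on the log2 scale for SP100 (standard error 0.117, edgeR adjusted p = 0.0164), 0.47 for SP110 (standard error 0.109, edgeR adjusted p = 0.0199) and 0.57 for SP140 (standard error 0.113, edgeR adjusted p = 0.00668). SP140L gave 0.27 (95% interval 0.015 to 0.53, edgeR adjusted p = 0.209), PML 0.12 (−0.099 to 0.35, edgeR adjusted p = 0.523) and DAXX −0.15 (−0.40 to 0.090, edgeR adjusted p = 0.463), and none of these 3 passed. With SP140 and SP140L summed, the difference in response was 0.45 (edgeR adjusted p = 0.00877).

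The calls of these interactions did not all hold when single libraries were left out. Each such fit has 1 library in a group, which weakens the test for every gene, and the share of all genes then called is not given here. Without replicate 2 of MM1R vehicle, SP100 lost its call at a value of 0.555, above the 0.52 of the full fit. A lost call is therefore not a measure of the omitted library alone. When single libraries were omitted, the value of SP100 ran from 0.406 to 0.648, that of SP110 from 0.423 to 0.516 and that of SP140 from 0.533 to 0.615. Without replicate 1 of MM1R TAK-981 none of the 6 was called in edgeR (SP140 at an adjusted p of 0.0514), and without replicate 1 of MM1S vehicle or either replicate of MM1R vehicle 1 was. DESeq2 called the same 3 genes as edgeR.

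The lines were also compared under TAK-981, a comparison that was added after the data were seen. The log2 difference of MM1R against MM1S with TAK-981 was −0.20 for SP100 (95% interval −0.37 to −0.026, edgeR adjusted p = 0.0581), −0.20 for SP110 (−0.36 to −0.048, edgeR adjusted p = 0.0333), −0.12 for SP140 (−0.29 to 0.047, edgeR adjusted p = 0.242) and −0.21 for SP140L (−0.39 to −0.028, edgeR adjusted p = 0.0577). SP110 was the 1 of 6 called (43.1% of all tested genes were, in either direction), and it lost the call without any 1 of the 4 TAK-981 libraries (adjusted p from 0.0624 to 0.196). PML differed by −0.011 (−0.17 to 0.14, edgeR adjusted p = 0.92) and DAXX by −0.077 (−0.25 to 0.094, edgeR adjusted p = 0.479). The difference in response to TAK-981 is the line difference under TAK-981 minus that under vehicle. The lower vehicle level in MM1R, the larger response and the smaller difference under TAK-981 are therefore not separate results.

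**Figure D3:**
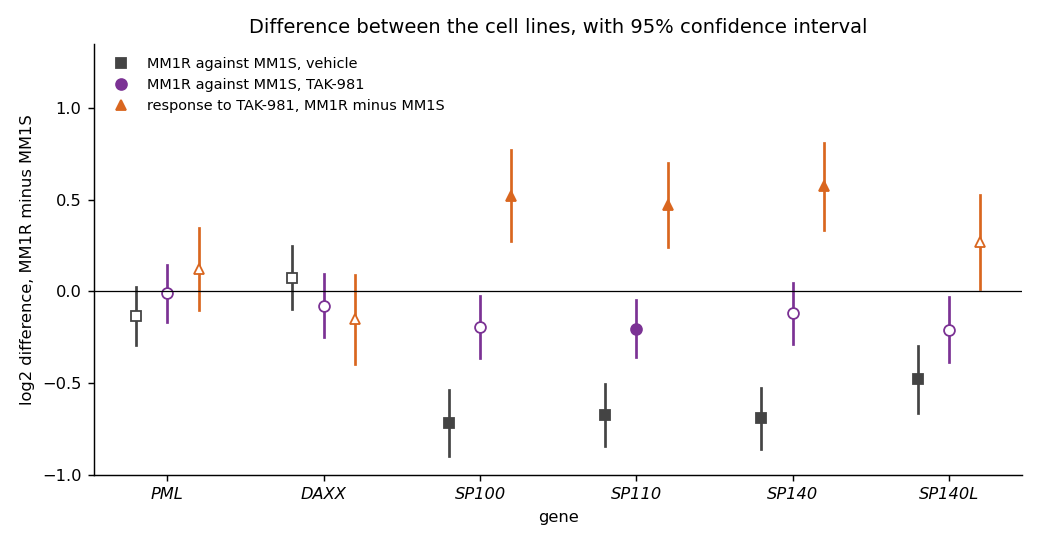
Log2 difference between the lines (MM1R minus MM1S) with 95% confidence intervals, under vehicle (squares), under TAK-981 (circles) and for the response to TAK-981 (triangles), where filled symbols passed the test. The 4 genes of the chromosome 2 cluster lie at −0.72 to −0.48 under vehicle and at −0.21 to −0.12 under TAK-981. Each triangle is the circle minus the square, so the values of a gene are not independent.

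A difference between the lines in the response to Dex was called for 0 of the 6 genes by edgeR (0 at an unadjusted p under 0.05) and by DESeq2, where 28.1% of all tested genes were called in either direction. The response to combo was larger in MM1R for SP100 (0.44, edgeR adjusted p = 0.0102), SP110 (0.45, edgeR adjusted p = 0.00474), SP140 (0.59, edgeR adjusted p = 0.00069) and SP140L (0.38, edgeR adjusted p = 0.0284), which is 4 of 6 against 15.3% of all tested genes. SP140L lost this call in DESeq2 (0.388, adjusted p = 0.0615) and without replicate 1 of MM1S vehicle, replicate 2 of MM1S combo, either replicate of MM1R vehicle or replicate 1 of MM1R combo (edgeR adjusted p from 0.0759 to 0.124). SP100 lost it without replicate 1 of MM1R vehicle (0.405, edgeR adjusted p = 0.0527). This comparison and the interaction with TAK-981 share their vehicle libraries.

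Other genes of PML bodies were taken from a list of 40 that included ATRX, the SUMO paralogs and enzymes, the DNA repair proteins found in the bodies and the HIRA histone chaperone. With TAK-981, 8 of the 40 rose and 13 fell in MM1S and 10 rose and 15 fell in MM1R, with a median log2 fold change of −0.069 and −0.023 beside 0.037 and 0.0043 over all tested genes. The shares of all tested genes called lower were 23.7% in MM1S and 27.6% in MM1R, beside the 25.2% and 25.8% called higher. Calls in this list went in both directions. BLM, the helicase mutated in Bloom syndrome, fell most. It went from 68.9 and 60.1 CPM to 19.8 and 22.03 CPM in MM1S (log2 fold change −1.62, edgeR adjusted p = 1.59e-11) and from 82.4 and 80.3 CPM in MM1R to 41.0 and 39.7 CPM (−1.01, edgeR adjusted p = 3.93e-09).

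RMI1, which works in the BLM complex, fell with it, from 42.6 and 43.3 CPM to 16.4 and 15.3 CPM in MM1S. In MM1R it went from 49.2 and 49.6 CPM to 27.65 and 25.4 CPM. MRE11, a nuclease of double-strand break repair, went from 100.7 and 92.5 CPM to 63.0 and 53.1 CPM in MM1S. It also fell in MM1R (log2 fold change −0.50, edgeR adjusted p = 5.5e-05). ISG20, an interferon-induced exonuclease, rose in MM1R from 39.4 and 39.7 CPM to 73.7 and 72.7 CPM (log2 fold change 0.89, edgeR adjusted p = 2.51e-06). It rose in MM1S too (0.42, edgeR adjusted p = 0.00313). ATRX, the partner of DAXX, had a log2 fold change of 0.12 in MM1S (edgeR adjusted p = 0.184) and rose by 0.36 in MM1R (edgeR adjusted p = 0.00035).

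Of 40 interferon-stimulated genes, 39 were tested, and 39 rose with TAK-981 in MM1S and 38 in MM1R. The shares of all tested genes called higher were 25.2% in MM1S and 25.8% in MM1R. BST2, which tethers virions to the cell surface, was the gene not called in MM1R (log2 fold change 0.24, edgeR adjusted p = 0.0821). The median log2 fold change was 1.73 in MM1S and 2.26 in MM1R, so the values of the 6 genes, up to 0.876 and 1.398, lay below the median of this list. XAF1, a pro-apoptotic interferon target, went from 6.48 and 6.66 CPM to 115 and 88.6 CPM in MM1S. In MM1R it went from 1.45 and 1.65 CPM to 141.2 and 119.6 CPM. IFI44 (log2 fold change 3.73 in MM1S and 3.91 in MM1R), MX2, a restriction factor (2.69 and 5.18), and IFIT1, which binds foreign RNA (3.69 and 5.32), rose as well. A larger response to TAK-981 in MM1R than in MM1S was called for 12 of the 39, beside 3.19% of all tested genes.

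Of 12 genes of interferon signalling, 10 were tested, and 6 rose and 2 fell with TAK-981 in MM1S while 8 rose and the other 2 were not called in MM1R. The 2 that fell in MM1S were JAK2, a receptor-associated kinase (log2 fold change −0.33, edgeR adjusted p = 0.00115), and IFNAR2, a chain of the type I interferon receptor (−0.21, edgeR adjusted p = 0.00535). In MM1R JAK2 rose (0.30, edgeR adjusted p = 0.00212) and IFNAR2 was not called (−0.046, edgeR adjusted p = 0.515). STAT2 (log2 fold change 0.89 in MM1S and 0.94 in MM1R) and IRF1 (0.64 and 0.70), transcription factors of interferon signalling, were among those that rose in both lines.

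**Figure D4:**
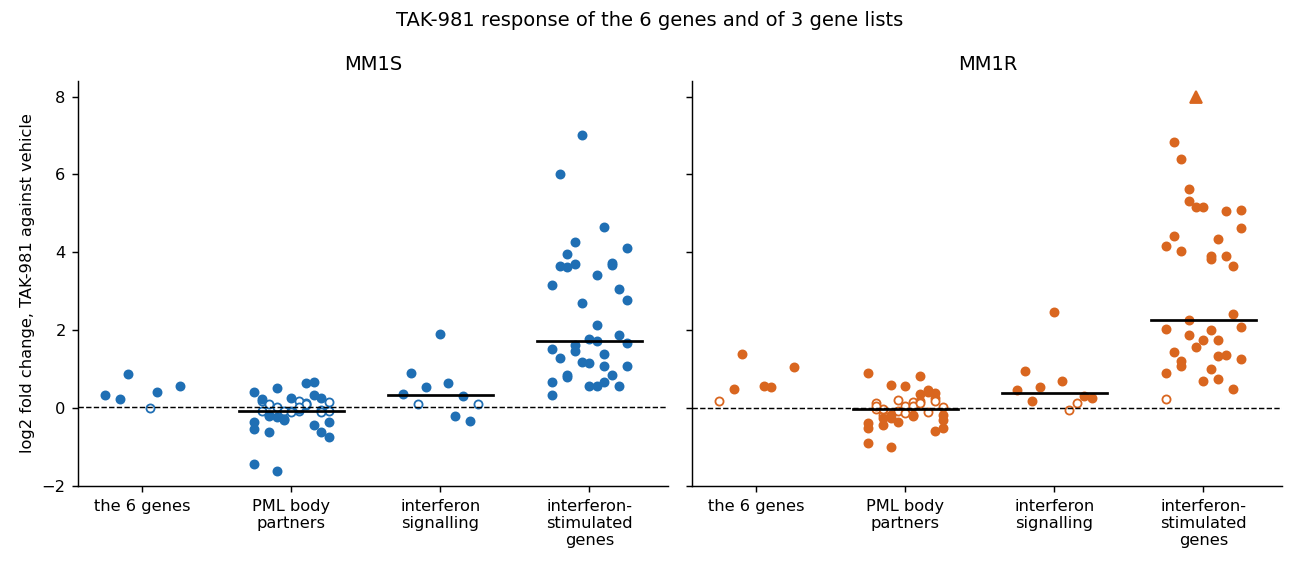
Log2 fold change with TAK-981 against vehicle of the 6 genes, 40 PML body partners, 10 interferon signalling genes and 39 interferon-stimulated genes in MM1S (left) and MM1R (right), each point a gene, filled where called, with the median of each list (line) and of all tested genes (dashed line). The partners lie on both sides of 0 and the interferon-stimulated genes above it, and the triangle at the upper edge is IFI44L, whose MM1R vehicle libraries held no count, so that its fitted value is no bound and is not drawn to scale.

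Across the 16 libraries, the log2 CPM values of the 6 genes were compared with each other and with all other genes of a mean log2 CPM of at least 3. These correlations describe libraries that share lines and treatments and are not independent, so no p is given. SP100 and SP110 were the most alike pair of the 6 (Pearson r 0.984) and SP140 and DAXX the least (0.462). The 4 neighbours on chromosome 2 had r from 0.85 to 0.984 with each other. PML, on another chromosome, had r from 0.737 (SP140) to 0.921 (SP100) with these 4, so high values were not particular to the neighbours. DAXX had r from 0.462 to 0.665 with the 4 neighbours and 0.855 with PML.

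The genes most like each member were HELZ2 (r 0.986), MCL1 and DDAH2 for PML, TRANK1 (0.989), KIDINS220 and MAP3K1 for SP100, and RAB11FIP1 (0.994), TTN and TRANK1 for SP110. For SP140 they were MAFF (0.953), CHIT1 and XCR1, for SP140L CBLN3 (0.985), LINC00494 and SPRED1, and for DAXX FAM102A (0.946), TCIRG1 and TLE3. HELZ2 encodes a nuclear receptor coactivator, and MCL1 an anti-apoptotic protein on which myeloma cells often depend. TRANK1 stood in the top 3 of both SP100 and SP110.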

How the data were processed

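Ribosomal RNA-depleted total RNA of 16 libraries was sequenced. The authors deposited 1 table of raw counts per gene, with symbol, hg19 position, strand and length, which was used as deposited. The submitters' processing notes name bcl2fastq 2.18.0.12, STAR 2.6.0, HTSeq 0.6.0, edgeR 3.28.1 and hg19. Whether counting used strand is not given in the sources used here, and reads that match several genes may be split or dropped by it. Libraries were grouped by their labels.

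Genes were filtered with filterByExpr, scaled with TMM and fitted with 1 term per group over all 16 libraries in edgeR 4.0.16 (R 4.3.3, robust quasi-likelihood fit, 8 residual degrees of freedom). A gene was called at a Benjamini-Hochberg adjusted p under 0.05 over 14215 genes, for 17 contrasts. Log2 CPM used a prior count of 2. The genes, lists and tests were chosen with earlier results of these data known. Genes of a list were named when among the 3 largest absolute log2 fold changes with TAK-981 in a line, called and at a mean log2 CPM of at least 3. BST2, JAK2, IFNAR2, ATRX and IFI44L were named after their values were seen. The 3 genes most like each member were taken by Pearson r.

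On counts simulated for TAK-981 against vehicle in MM1S (13916 genes), the fit called 71% of genes changed 1.5-fold and 79% of those changed 2-fold (93.3% and 100% at a mean count of at least 100), with 7 false calls. Alternatives were RLE scaling, library size only, no filter, a replicate block, DESeq2 1.42.0, the compared groups fitted alone, a further threshold of 1 on the size of the log2 fold change, SP140 and SP140L summed, and leaving out each library. Promoters came from RefSeq (GRCh38.p14), transcripts from GENCODE release 29, and alignments from Biopython. PML and DAXX were not among the promoters used. Protein sequences were not used here. The values of 1 gene that the rule for lists named, and 1 further motif that was searched for, are not reported here.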

Additional observations from a re-analysis of the deposited data

Results flagged for a closer look

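The response to TAK-981 differed between MM1S and MM1R, by the edgeR interaction test, for SP100 (0.52 on the log2 scale, MM1R minus MM1S), SP110 (0.47) and SP140 (0.57). SP100 and SP110 rose in both lines, whereas SP140 was called in MM1R and had a log2 fold change of −0.0094 in MM1S.

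The response to combo differed in the same direction for SP100 (0.44), SP110 (0.45), SP140 (0.59) and SP140L (0.38). Both sets of values share their vehicle libraries. Groups of 2 libraries are too small for a check of single libraries that stand apart, which needs 4.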

How the results depend on the processing

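Each reported log2 value of a member was recomputed under the alternatives and with each library of its comparison left out, 672 recomputed values for 61 results. Of these, 606 kept their direction and their side of the threshold, 37 lost a call, 18 gained one and 11 changed sign, of which 0 belonged to a called result. The sign changes were PML in MM1R against MM1S with TAK-981 (0.012 with RLE scaling and in DESeq2, 0.057 with the replicate block) and SP140 with TAK-981 in MM1S (0.088 when summed with SP140L). With single libraries left out, they also came in the ranges of SP140 with TAK-981 in MM1S (−0.041 to 0.018), DAXX with Dex in MM1R (−0.23 to 0.0018), SP100 with combo against TAK-981 in MM1S (−0.059 to 0.18) and MM1R (−0.094 to 0.037), and PML (−0.098 to 0.081) and DAXX (−0.16 to 0.015) in MM1R against MM1S with TAK-981.

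The number of the 6 genes called moved as follows. With a log2 fold change of at least 1 also required, it was 0 with TAK-981 in MM1S and 2 in MM1R, 0 with combo in MM1S and 1 in MM1R (against vehicle and against Dex), and 0 for the lines under vehicle, for the lines under TAK-981 and for the difference in response to TAK-981 or combo. For the lines under TAK-981 it was 1 as reported, 0 with RLE scaling, in DESeq2 and with only these groups, 3 with library size only and 2 with the replicate block. It was 1 for combo against TAK-981 in MM1S without the filter, and 1 there and for combo beyond the sum of both agents in MM1S with the replicate block. With single libraries left out it ran from 0 to 3 for the difference in response to TAK-981, from 2 to 4 for that to combo, and from 0 to 1 for Dex, for combo against TAK-981 and for combo beyond the sum in MM1S and for the lines under TAK-981. Over all genes, the lines under TAK-981 were called different for 6123 genes as reported. That became 6146 with RLE scaling, 6145 with library size only and 6365 with the block. Combo against TAK-981 in MM1S was called for 4990 genes as reported, 5188 without the filter and 6059 with the block. For the threshold of 1, DESeq2, only the compared groups and single libraries left out, the share of all genes called is not given here. The cause of the changes in number was not tested.

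Libraries share replicate numbers. The deviations of same-numbered libraries from their group means correlated at 0.016 to 0.263 in MM1S (6 pairs of groups). In MM1R they correlated at −0.013 to 0.082 (6 pairs). The main fit does not take the numbers as pairs. In MM1S, however, replicate 2 was above replicate 1 in every group for PML and DAXX. It was below replicate 1 in every MM1S group for SP140L, while SP100, SP110 and SP140 went both ways. Whether the numbers mark pairs is not given by the labels and was not settled here, so the fit with the replicate block is given beside the main one. With the replicate block DAXX was called with TAK-981 in MM1R (adjusted p = 0.0069), with combo against TAK-981 in MM1S (0.00676) and beyond the sum in MM1S (0.0143), and for the lines under TAK-981 SP100 (0.00478) and SP140L (0.027) were called and SP110 was not (0.0542). Of the lists, the difference in response to TAK-981 was called for 3 PML body partners as reported, 5 in DESeq2, 6 without the filter and 10 with the replicate block, and for 12 and 19 interferon-stimulated genes as reported and with the block. For Dex in MM1R 1 interferon-stimulated gene was called without the filter and 0 as reported. With a log2 fold change of at least 1 also required, 2 PML body partners were called with TAK-981 in MM1S, 1 in MM1R, 1 with Dex in MM1S and 0 for the difference in response to TAK-981. Of the interferon-stimulated genes, 4 were then called with Dex in MM1S and 6 for that difference, and of the interferon signalling genes 1 with TAK-981 in each line and 0 with Dex in MM1S and for that difference. The shares of all genes called with that threshold and in DESeq2 are not given here. The causes were not tested.

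Over all genes, the difference in response to TAK-981 was called for 592 genes (76.5% higher in MM1R) as reported, 1313 without the filter (63.4% higher) and 2061 with the replicate block (54.1% higher). Combo beyond the sum in MM1S was called for 2125 genes (36.6% higher) as reported, 1941 with library size only (53.2% higher) and 3579 with the block. In MM1R, 0 genes were called as reported and without the filter 30 for Dex, 9 for combo against TAK-981 and 19 for combo beyond the sum.

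With 2 libraries a group, and 1 when 1 is left out, a lone library is assumed to vary like the other groups, and the depth of 324 to 2795 counts a gene leaves standard errors of 0.0739 to 0.124 on the log2 scale. RLE scaling or library size only moved the median of all genes by under 0.1.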
